A study of Mus with 8 samples.

Results

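The nuclear receptor PPAR-alpha (Ppara), its partners and its signalling targets outside the oxidation enzymes were followed in mouse liver. The set held 10 genes, namely Ppara, Rxra, Ppargc1a, Creb3l3, Fgf21, Angptl4, Pdk4, Vnn1, Fabp1 and Ucp2. They were picked by gene name from the 54532 genes of the deposited table, and all 10 had counts high enough to be tested. RNA from whole liver was sequenced as mRNA libraries in 2 groups of 4. The libraries labelled DSS (15, 48, 49 and 50) came from mice given 2.5% dextran sulfate sodium, a polysaccharide that injures the colon lining, until day 6. The libraries labelled DSSHA (35, 45, 65 and 71) came from mice that had the same colitis treatment and in addition alcohol and a high-fat diet. Whether each library came from its own mouse is not said, so p-values here measure the spread between these libraries, which may be technical.

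Colitis was thus common to both groups, and liver from mice without DSS was not analysed here. Alcohol and the high-fat diet were given together, so their effects cannot be told apart. The design text names a purified high-fat feed and a dietary high-fat feed with alcohol as the interventions after DSS, without saying outright which feed the libraries labelled DSS stand for. The sources used here do not give strain, age, or the feeding state and day at collection, and the organism is listed only as Mus. All 12 hepatocyte markers in the list used, albumin among them, were detected.

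PPAR-alpha is a receptor for fatty acids in the hepatocyte nucleus, where it binds DNA as a dimer with a retinoid X receptor. During fasting, fatty acids released from adipose tissue reach the liver, and the receptor is known for turning on their oxidation and the production of ketone bodies. It also drives messages to other tissues, such as the hormone FGF21 and the lipase inhibitor ANGPTL4, and local brakes on glucose use, such as the kinase PDK4.

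Of the 3 leading fasting signals, Angptl4 was lower in the diet-alcohol livers by 2.19-fold and passed the test. Pdk4 was lower by 4.54-fold in the fitted means, and its libraries differed much among themselves. It did not pass with edgeR, the main test, but did with DESeq2. Fgf21 did not separate the groups. The receptor Ppara, its dimer partner Rxra, the coactivator Ppargc1a, the liver transcription factor Creb3l3 and the remaining targets Vnn1, Fabp1 and Ucp2 did not pass either, although the ranges of Fabp1, a carrier of fatty acids in the cytosol, did not overlap between the groups.

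With edgeR's quasi-likelihood test, adjusted by Benjamini-Hochberg over all 11729 genes tested, 1 of the 10 genes was called at an adjusted p under 0.05, against 1.26% of all genes. The call was a fall in the diet-alcohol group, where 0.674% of all genes were called lower. Of the 10 genes 0 were called higher, against 0.588% of all genes, and 0 were higher at an unadjusted p under 0.05, while 3 were lower at that level (Angptl4, Pdk4 and Fabp1). Of all genes 5.94% were higher and 5.72% lower at an unadjusted p under 0.05. DESeq2 called 2 lower (Angptl4 and Pdk4) and 0 higher, where over all genes it called 1.71% lower and 1.41% higher. The counts in the pathway lists below stand against these same shares of all genes. The log2 fold change of diet-alcohol over DSS was negative for 7 genes and positive for 3, with a median of -0.49 beside -0.01 over all genes tested. The ranges of the groups did not overlap for 2 of the 10 genes, Angptl4 and Fabp1, beside 8.77% of all genes. Levels of a gene are given below in CPM, counts scaled to the TMM-adjusted library size, which compares 1 gene between libraries. Every log2 fold change below is of diet-alcohol over DSS, and coordinates are those of the deposited table, on GRCm38 by the submitters' processing notes. Since whole liver was sequenced, fewer cells of a type and less RNA per cell cannot be told apart.

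**Figure D1:**
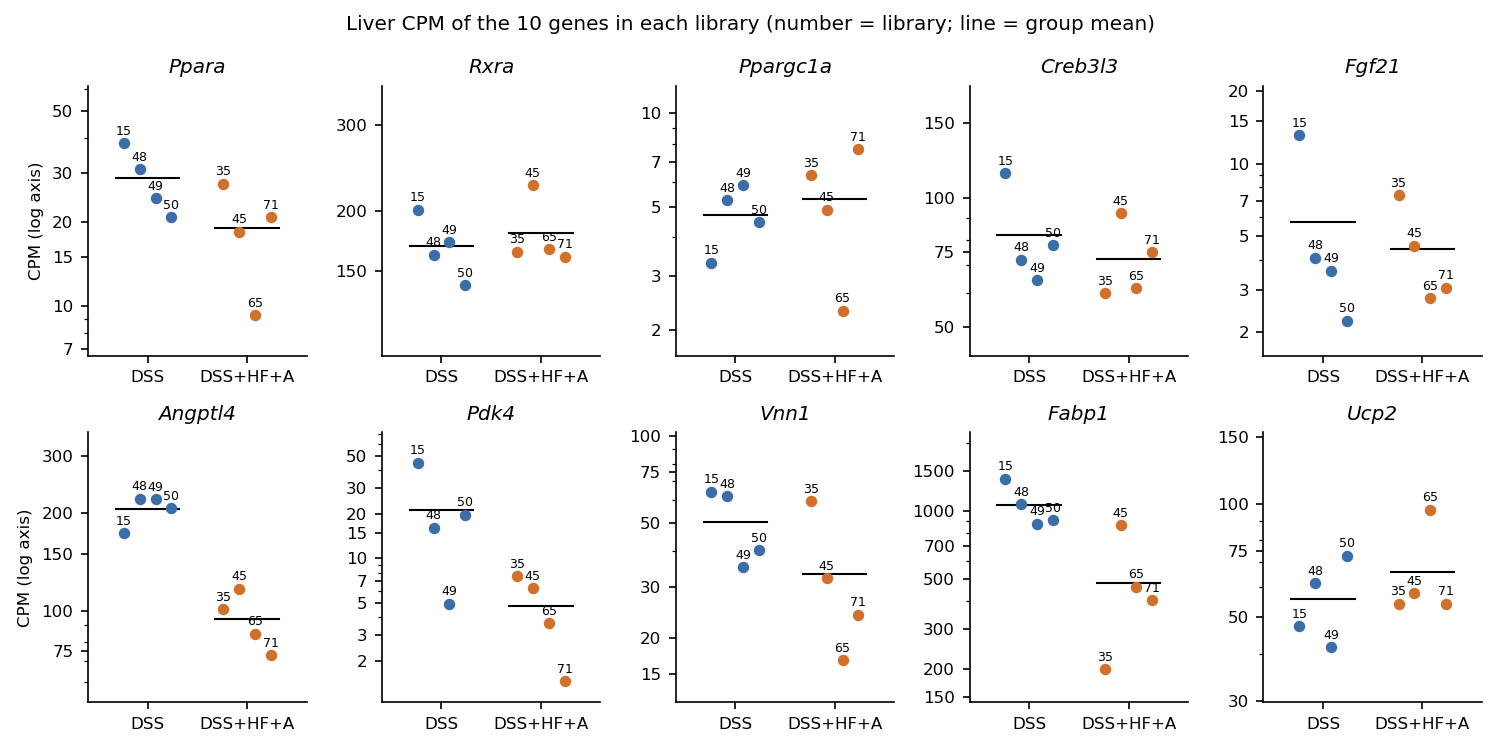
CPM (log axis) of the 10 genes in each library, with the diet-alcohol group marked DSS+HF+A, 1 point per library and a line at each group mean. Angptl4 sits between 173.7 and 222 CPM in the DSS libraries and between 72.9 and 117 in the diet-alcohol libraries. Of the other genes, only Fabp1 has group ranges that do not overlap.

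Between genes, levels can be set side by side only per length, and on the deposited FPKM scale the set spanned a wide range. Fabp1, with a mean of 1368.7 FPKM over the 8 libraries, was the most abundant. Angptl4 followed at 44.7 FPKM, Rxra at 31.3, Creb3l3 at 25.0, Vnn1 at 17.0 and Ucp2 at 8.53. Ppara itself stood at 6.10 FPKM, Fgf21 at 5.26, Pdk4 at 3.67 and Ppargc1a at 0.743. Fabp1 exceeded Angptl4 in 8 of 8 libraries, and no other neighbours in this order kept their places in every library. Pdk4 exceeded Ppargc1a in 7 libraries and Vnn1 exceeded Ucp2 in 7, whereas Angptl4 exceeded Rxra in only 5 and Ppara exceeded Fgf21 in only 5.

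The receptor gene Ppara (ENSMUSG00000022383, chromosome 15, 85734983 to 85802819, plus strand) was at 38.5, 31.1, 24.4 and 20.9 CPM in DSS libraries 15, 48, 49 and 50. In diet-alcohol libraries 35, 45, 65 and 71 it was at 27.5, 18.5, 9.28 and 20.9 CPM. The ranges overlapped, with library DSS 15 highest and DSSHA 65 lowest. The means were 28.7 ± 7.79 and 19.1 ± 7.54 CPM (SD, n = 4 each), and the log2 fold change was -0.59 ± 0.32 (SE, 95% interval -1.29 to 0.11, adjusted p = 0.530 by edgeR). Within the PPAR family, whose other members are the widely expressed Ppard and the adipocyte regulator Pparg, Ppara made up 79.8% to 88.2% of the summed FPKM in DSS and 46.8% to 79.4% in diet-alcohol livers. These shares did not overlap (exact two-sided permutation p = 0.0286, the smallest that 4 against 4 allows, and 0.129 after adjustment over the 9 family shares compared). Pparg, the more abundant of the other 2 genes of the family, had a log2 fold change of 1.41 ± 0.43 and an adjusted p of 0.170 by edgeR.

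Rxra (ENSMUSG00000015846, chromosome 2, 27676440 to 27762957, plus strand), the retinoid X receptor that pairs with PPAR-alpha, was at 201, 162.4, 172.1 and 140.5 CPM in the DSS libraries. In the diet-alcohol libraries it was at 164.7, 225.9, 166.7 and 160.7 CPM. The groups overlapped, with DSSHA 45 above all other libraries and DSS 50 below them. The mean was 169 ± 25.1 CPM in DSS and 179.5 ± 31.0 in diet-alcohol livers (SD, n = 4), a log2 fold change of 0.09 (95% interval -0.37 to 0.55, adjusted p = 0.921 by edgeR). This was the narrowest spread in the set: the highest of the 8 libraries was 1.61 times the lowest.

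Ppargc1a (ENSMUSG00000029167, chromosome 5, 51454250 to 51567726, minus strand) encodes a coactivator of PPAR-alpha that is known to rise in fasted liver. It was at 3.31, 5.26, 5.87 and 4.47 CPM in the DSS libraries and at 6.33, 4.90, 2.32 and 7.66 CPM in the diet-alcohol libraries. The diet-alcohol libraries held both the highest and the lowest value, so the groups overlapped entirely (log2 fold change 0.18, 95% interval -0.65 to 1.01, adjusted p = 0.913 by edgeR). Its level is uncertain, since its interval overlaps that of the same-strand gene Gm42614, which had 696 counts beside the 653 of Ppargc1a over the 8 libraries.

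Creb3l3 (ENSMUSG00000035041, chromosome 10, 81084324 to 81098874, minus strand) encodes a membrane-bound transcription factor of hepatocytes that acts with PPAR-alpha on Fgf21. The DSS libraries had 114.3, 71.9, 64.3 and 77.6 CPM and the diet-alcohol libraries 59.9, 92.3, 61.6 and 74.7. The groups overlapped, with the highest value in DSS 15 and the lowest in DSSHA 35. The log2 fold change was -0.19 (95% interval -0.71 to 0.34, adjusted p = 0.837 by edgeR).

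Fgf21 (ENSMUSG00000030827, chromosome 7, 45613886 to 45615490, minus strand), a hormone released by the liver in fasting and in several kinds of stress, was at 13.1, 4.07, 3.60 and 2.23 CPM in the DSS libraries. In the diet-alcohol libraries it was at 7.39, 4.57, 2.76 and 3.06 CPM. These values rest on 15 to 210 counts per library. DSS 15 stood above all others, and the remaining libraries of the groups overlapped. The means were 5.75 ± 4.96 and 4.44 ± 2.12 CPM (SD, n = 4), and the log2 fold change was -0.39 ± 0.54 (SE, 95% interval -1.56 to 0.79, adjusted p = 0.850 by edgeR). Without DSS 15 the log2 fold change was 0.42 (adjusted p = 0.821), so the sign for Fgf21 rested on that library.

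FGF21 acts on its target tissues through an FGF receptor joined to the co-receptor beta-Klotho (Klb). Of the 17 genes of FGF21 and FGF19 signalling in the list used, 12 were tested and 0 were called by edgeR. At an unadjusted p under 0.05, 1 was lower and 0 higher, and DESeq2 called 1 lower. The list's median log2 fold change was -0.21 beside -0.01 over all genes. Klb had the smallest p of the list, with 4.05, 14.3, 11.9 and 9.83 CPM in DSS and 2.52, 2.84, 2.10 and 4.33 CPM in diet-alcohol livers (log2 fold change -1.74 ± 0.40, adjusted p = 0.0680 by edgeR). The groups overlapped in Klb only through DSS 15, which was lowest of its group there and highest of its group for Fgf21.

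The stress factor ATF4 is another known inducer of Fgf21. Of 22 tested genes of ATF4 and the integrated stress response, 1 was called higher and 0 lower by edgeR, with a median log2 fold change of 0.19. The gene called was Asns, the asparagine synthetase, at 1.51 ± 1.53 CPM in DSS and 11.7 ± 3.51 in diet-alcohol livers (SD, n = 4, log2 fold change 2.84 ± 0.58, adjusted p = 0.0351). At an unadjusted p under 0.05, 2 genes of the list were higher and 2 lower, and DESeq2 called 2 higher. The call on Asns was lost in 8 of the 18 alternative settings, among them the fits without DSS 48, 49 or 50 and without DSSHA 45, 65 or 71 (adjusted p = 0.0514 to 0.167 by edgeR).

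Of 23 tested genes bound or induced by CREB3L3, edgeR called 1 higher and 2 lower, with a median log2 fold change of -0.62. Apcs, the serum amyloid P component of the acute-phase response, rose from 50.01 ± 20.4 to 761.3 ± 150.3 CPM (SD, n = 4, log2 fold change 3.93 ± 0.35, adjusted p = 0.00043). Apoa5, an apolipoprotein that aids lipoprotein lipase, fell from 911.8 ± 196.4 to 342.9 ± 92.3 CPM (log2 fold change -1.41 ± 0.27, adjusted p = 0.0270). The hepatic lipase gene Lipc fell from 129.5 ± 39.9 to 48.9 ± 8.87 CPM (log2 fold change -1.41 ± 0.27, adjusted p = 0.0302). The call on Apcs held in all 18 alternative settings. Those on Apoa5 and Lipc were lost in 6, namely with the mitochondrial share as a covariate and without DSS 48, 49 or 50 or DSSHA 45 or 65. In each of these 5 fits with a library left out, 0 genes of the list were called lower. Of the 23 genes, 18 had a negative and 5 a positive log2 fold change. At an unadjusted p under 0.05, 7 were lower and 1 higher, and DESeq2 called 5 lower and 1 higher. Creb3l3 mRNA itself did not pass the test.

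Angptl4 (ENSMUSG00000002289, chromosome 17, 33773750 to 33781575, minus strand) encodes a secreted inhibitor of lipoprotein lipase, the enzyme that frees fatty acids from circulating triglyceride. It was at 173.7, 222, 221.3 and 207.1 CPM in the DSS libraries. In the diet-alcohol libraries it was at 101.3, 117, 84.9 and 72.9 CPM. The groups did not overlap, and the library DSS 15, high for several of the other genes, was the lowest of its group here. The mean fell from 206 ± 22.6 to 94.0 ± 19.2 CPM (SD, n = 4), a log2 fold change of -1.13 ± 0.22 (SE, 95% interval -1.60 to -0.66, adjusted p = 0.0273 by edgeR). Of all genes tested, 3.98% had a more negative log2 fold change.

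The direction for Angptl4 was the same in all 18 alternative settings, with a log2 fold change of -1.26 to -1.03 when 1 library was left out. The call was less steady. Its adjusted p by edgeR was 0.128 without DSS 48, 0.108 without DSS 49 and 0.0990 without DSS 50. It was 0.0567 without DSSHA 65 and 0.0655 without DSSHA 71. With the share of mitochondrially encoded counts as a covariate the log2 fold change was -1.15 and the adjusted p 0.158. In the authors' deposited table Angptl4 had a log2 fold change of -1.13 and an adjusted p of 0.000193. Its unadjusted p there was the same as that given by DESeq2.

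The hepatocyte marker sum separated the groups in the same direction as Angptl4, but its members did not all share that sign. The summed level of the 12 markers, all detected, ran from 48637.5 to 76141.1 CPM in DSS and from 33712.4 to 43602.3 CPM in diet-alcohol livers (exact two-sided permutation p = 0.0286, adjusted p = 0.0857 over 9 marker sums). Singly, 9 of the 12 had a negative and 3 a positive log2 fold change, with a median of -0.34. By edgeR 0 of the 12 were called, with 2 higher and 2 lower at an unadjusted p under 0.05. All 12 neutrophil markers were detected, at summed levels of 2.88 to 13.0 CPM in DSS and 33.9 to 74.8 CPM in diet-alcohol livers (exact two-sided permutation p = 0.0286, adjusted p = 0.0857). Of these, 4 had enough counts to be tested, and edgeR called all 4 higher, with a median log2 fold change of 3.56. Of the 8 adipocyte markers, 6 were detected at a summed level of 22.2 to 34.0 CPM in DSS and 23.9 to 37.8 CPM in diet-alcohol livers, and the defining markers Adipoq and Lep were at 0. The part of these cell types in the Angptl4 difference was not tested.

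**Figure D2:**
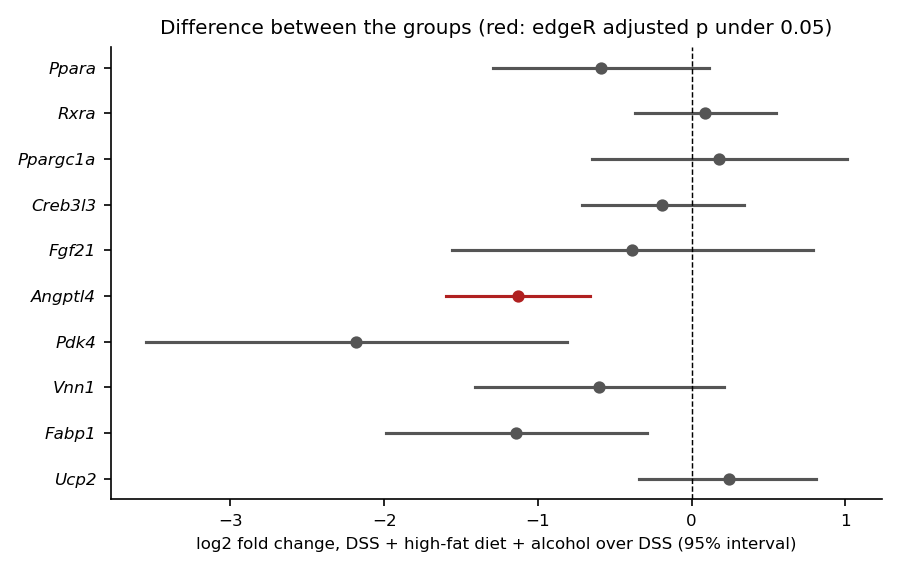
Log2 fold change of diet-alcohol over DSS for the 10 genes from edgeR, with bars for the 95% interval. The intervals of Angptl4 (-1.60 to -0.66), Pdk4 (-3.55 to -0.81) and Fabp1 (-1.99 to -0.29) lie below 0 before adjustment, and those of the other 7 genes cross 0.

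Among the relatives of Angptl4, Angptl8 and Angptl6 had the same sign and did not pass the test. Angptl8, a feeding-induced regulator of lipoprotein lipase, was at 16.8 ± 5.70 FPKM in DSS and 6.70 ± 5.17 in diet-alcohol livers (SD, n = 4, log2 fold change -1.35, adjusted p = 0.428 by edgeR). Angptl6, less studied in lipid handling, was at 3.75 ± 2.39 and 1.98 ± 0.535 FPKM (log2 fold change -0.91, adjusted p = 0.478).

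Of 14 genes of lipoprotein lipase control, all tested, edgeR called 2 lower and 0 higher, with a median log2 fold change of -0.49. They were Apoa5 and Lipc, described above, and 0 were called with the mitochondrial share as a covariate or without DSS 48, 49 or 50 or DSSHA 45 or 65. At an unadjusted p under 0.05, 4 were lower and 0 higher, and DESeq2 called 3 lower. The 3 genes whose pattern over the 8 libraries lay closest to that of Angptl4 were Ttc39c, Keg1 and Otc. Their mean absolute difference from Angptl4, in SD units of scaled log2 CPM, was 0.154, 0.166 and 0.174. Ttc39c was at 73.9 ± 5.74 CPM in DSS and 33.6 ± 5.22 in diet-alcohol livers, and Keg1 at 27.9 ± 2.60 and 2.85 ± 1.08 CPM. Otc, the ornithine transcarbamylase of the urea cycle, was at 162.6 ± 27.4 and 86.5 ± 17.1 CPM.

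Pdk4 (ENSMUSG00000019577, chromosome 6, 5483351 to 5496309, minus strand) encodes a kinase that shuts off the pyruvate dehydrogenase complex and so spares glucose in fasting. The DSS libraries were at 44.96, 16.2, 4.91 and 19.8 CPM. The diet-alcohol libraries were at 7.56, 6.30, 3.65 and 1.47 CPM. DSS 49 lay inside the diet-alcohol range and the other 3 DSS libraries lay above it. The mean was 21.5 ± 16.9 CPM in DSS and 4.74 ± 2.72 in diet-alcohol livers (SD, n = 4), a log2 fold change of -2.18 ± 0.62 (SE, 95% interval -3.55 to -0.81) with an adjusted p of 0.150 by edgeR. It was the most variable gene of the set: the highest of the 8 libraries was 30.6 times the lowest. Of all genes tested, 0.742% had a more negative log2 fold change.

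Whether Pdk4 passed depended on the test. DESeq2 gave a log2 fold change of -2.19 with an adjusted p of 0.00832. The authors' deposited table had -2.19 with 0.00858. Its unadjusted p, 0.000145, was the same as by DESeq2, so the deposited values are no separate result. Under the other settings Pdk4 did not pass, and the adjusted p by edgeR was 0.0891 without DSS 49. Leaving out DSS 15, its highest library, gave -1.53 with an adjusted p of 0.321.

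The mouse has 4 pyruvate dehydrogenase kinases. Pdk2, an abundant form in liver, was at 12.7 ± 1.46 FPKM in DSS and 12.7 ± 3.08 in diet-alcohol livers (SD, n = 4, log2 fold change 0.00, adjusted p = 0.998 by edgeR). Pdk1 was at 2.37 ± 0.0923 and 1.96 ± 1.04 FPKM, and Pdk3 had 100 counts over all libraries. The share of Pdk4 in the summed FPKM of the 4 kinases was 44.1%, 24.6%, 8.83% and 23.7% in the DSS libraries. In the diet-alcohol libraries the share was 12%, 9.71%, 9.31% and 2.20%. The shares overlapped through DSS 49 (exact two-sided permutation p = 0.114, adjusted p = 0.257 over the 9 family shares).

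**Figure D3:**
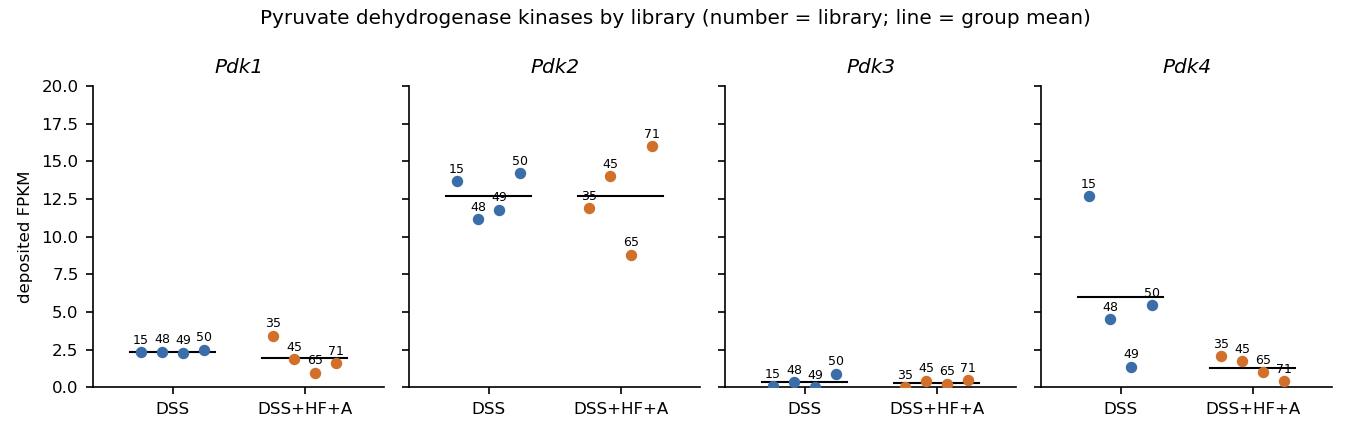
Deposited FPKM of the 4 pyruvate dehydrogenase kinases in each library. Pdk2 lies between 8.80 and 16.0 FPKM over both groups, while Pdk4 reaches 12.7 FPKM in DSS 15 and 0.407 FPKM in DSSHA 71.

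The target of these kinases, the pyruvate dehydrogenase complex, and the phosphatases that reverse them were counted in a list of 11 genes, all tested. By edgeR 0 were called, with a median log2 fold change of -0.56. At an unadjusted p under 0.05, 4 were lower and 0 higher, and DESeq2 called 1 lower. The smallest p was that of Pdp2, a phosphatase that reactivates the complex, at 9.29 ± 2.47 CPM in DSS and 3.61 ± 1.502 in diet-alcohol livers (log2 fold change -1.35 ± 0.35, adjusted p = 0.103 by edgeR). Pdp2, which opposes Pdk4, thus had the same sign as Pdk4.

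The genes closest to Pdk4 in pattern were Mrps31, Adh7 and Alpl, at mean absolute differences of 0.241, 0.264 and 0.270 SD over the 8 libraries. None had a spread like that of Pdk4 in CPM: Mrps31, a protein of the mitochondrial ribosome, ran only from 7.78 to 14.2 CPM. For Fgf21 the closest were Dnajc11, Cidec and Cycs, at 0.219, 0.258 and 0.261 SD. Cidec, a lipid droplet protein and itself a PPAR target, was at 125.3, 12.3, 3.95 and 5.21 CPM in DSS and at 35.2, 15.6, 5.63 and 17.3 CPM in diet-alcohol livers. DSS 15 was thus the highest library for Cidec as for Fgf21. None of these 6 genes passed the test between the groups by edgeR, the smallest adjusted p being 0.0537 for Alpl.

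Vnn1 (ENSMUSG00000037440, chromosome 10, 23894688 to 23905343, plus strand) encodes a pantetheinase, which splits pantetheine into pantothenate and cysteamine. It was at 64.4, 61.9, 35.2 and 40.4 CPM in the DSS libraries and at 59.7, 32.3, 16.8 and 24.1 CPM in the diet-alcohol libraries. DSSHA 35 lay among the DSS libraries, and the other 3 diet-alcohol libraries lay below all of them. The log2 fold change was -0.60 ± 0.37 (SE, 95% interval -1.41 to 0.21, adjusted p = 0.604 by edgeR). Without DSSHA 35 it was -1.04 with an adjusted p of 0.0665, so the value moved but did not pass. Its paralog Vnn3, next to it on chromosome 10, was at 39.1 ± 8.79 FPKM in DSS and 34.7 ± 15.8 in diet-alcohol livers (log2 fold change -0.17, adjusted p = 0.896). Of 14 tested genes of pantetheine, cysteamine and CoA synthesis, 0 were called by edgeR, 2 were lower and 0 higher at an unadjusted p under 0.05, and DESeq2 called 2 lower. The smallest p was that of Nudt7, a CoA hydrolase of peroxisomes (118.6 ± 41.1 CPM in DSS and 40.9 ± 17.8 in diet-alcohol livers, adjusted p = 0.0797 by edgeR).

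Fabp1 (ENSMUSG00000054422, chromosome 6, 71199827 to 71205023, plus strand) encodes the liver fatty acid binding protein, which carries fatty acids through the cytosol and to PPAR-alpha. The DSS libraries were at 1391.1, 1069.5, 877.1 and 912 CPM. The diet-alcohol libraries were at 198.3, 863.2, 461.7 and 402.1 CPM. All DSS libraries lay above all diet-alcohol libraries, but DSSHA 45 came close to the lowest DSS library. The mean was 1062.4 ± 234.6 CPM in DSS and 481.3 ± 278.4 in diet-alcohol livers (SD, n = 4), a log2 fold change of -1.14 ± 0.39 (SE, 95% interval -1.99 to -0.29) with an adjusted p of 0.234 by edgeR. In the authors' deposited table the adjusted p of Fabp1 was 0.0771. The difference was of the size seen for Angptl4, with a larger standard error.

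Fabp1 made up 96.9% to 97.8% of the summed FPKM of Fabp1 to Fabp7 in DSS and 85.4% to 96.1% in diet-alcohol livers (exact two-sided permutation p = 0.0286, adjusted p = 0.129 over the 9 family shares). Fabp2, the intestinal form, was next at 36.8 ± 9.76 and 42.4 ± 9.26 FPKM (log2 fold change 0.21, adjusted p = 0.822 by edgeR). Fabp6 had 0 counts and Fabp3 had 2 over all libraries. The hepatocyte marker sum given beside Angptl4 also separated the groups in the direction of Fabp1, although 3 of its 12 markers had the opposite sign, and its part in the Fabp1 difference was not tested.

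Ucp2 (ENSMUSG00000033685, chromosome 7, 100493337 to 100502020, plus strand) encodes a carrier of the inner mitochondrial membrane that liver macrophages also express. It was at 47.3, 61.6, 41.7 and 72.8 CPM in the DSS libraries and at 54.4, 58.1, 96.4 and 54.4 CPM in the diet-alcohol libraries. DSSHA 65 was above all others, and the remaining diet-alcohol libraries lay inside the DSS range. The log2 fold change was 0.24 (95% interval -0.34 to 0.81, adjusted p = 0.807 by edgeR), and -0.01 without DSSHA 65. Its paralogs Ucp1 and Ucp3 had 0 counts in every library, so all reads of the 3 genes were assigned to Ucp2. All 15 Kupffer cell and macrophage markers were detected, with summed levels of 261.7 to 421.7 CPM in DSS and 451.2 to 783.6 CPM in diet-alcohol livers (exact two-sided permutation p = 0.0286, adjusted p = 0.0857 over 9 marker sums). Singly, 13 were tested, and 12 had a positive and 1 a negative log2 fold change, with a median of 0.48. By edgeR 1 was called higher, and the group ranges did not overlap for 1. In DSSHA 35, 45, 65 and 71 the sum was 451.2, 454.7, 764.2 and 783.6 CPM. The sum was thus highest in DSSHA 71, whereas Ucp2 was highest in DSSHA 65 and at 54.4 CPM in DSSHA 71. The part of macrophages in the Ucp2 level was not tested.

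The oxidation enzymes, the classical targets of PPAR-alpha, were counted beside these signals. Of 36 genes of fatty acid oxidation and ketogenesis, all tested, edgeR called 5 lower and 0 higher, with a median log2 fold change of -0.13. At an unadjusted p under 0.05, 9 were lower and 0 higher, and DESeq2 called 8 lower and 0 higher. Acsl1, whose enzyme couples fatty acids to CoA, fell from 350.7 ± 101.2 to 91.4 ± 21.9 CPM (SD, n = 4, log2 fold change -1.94 ± 0.27, adjusted p = 0.00555) and was called in all 18 alternative settings. Acaa1b, a peroxisomal thiolase, fell from 761.9 ± 433.2 to 108.2 ± 57.4 CPM (log2 fold change -2.81 ± 0.51, adjusted p = 0.0205). The omega-hydroxylase genes Cyp4a10, Cyp4a31 and Cyp4a14 were also called lower, at log2 fold changes of -1.79, -1.48 and -1.87 (adjusted p = 0.0305, 0.0391 and 0.0473). Cyp4a14 falls outside the naming rule and was chosen after its values were seen. Near-identical copies in the Cyp4a family make these counts uncertain gene by gene. The calls on Acaa1b and the 3 Cyp4a genes were each lost in 5 to 8 of the 18 alternative settings. Of the list, 1 gene was called without DSS 48 or DSS 50, 2 without DSS 15, DSS 49, DSSHA 45 or DSSHA 65, and 3 without DSSHA 71. The count was 7 without DSSHA 35 and 7 with mitochondrial genes left out. The list's median log2 fold change was 0.01 without DSS 15, 0.03 without DSSHA 65, -0.22 without DSSHA 35 and -0.23 without DSS 49. With the mitochondrial share as a covariate it was -0.56. Cpt1a, the gate of mitochondrial oxidation, had a log2 fold change of 0.30 and did not pass, and it too was chosen after its values were seen. In the list, 24 genes had a negative and 12 a positive log2 fold change. The most negative was that of Ehhadh, at -2.86, which did not pass (adjusted p = 0.0518 by edgeR).

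Other neighbours of the pathway gave few calls. Of 24 tested PPAR, RXR and co-regulator genes 0 were called by edgeR, 1 was higher and 1 lower at an unadjusted p under 0.05, and DESeq2 called 0. Of 31 tested targets of lipid uptake, storage and other roles, 0 were called by edgeR, 1 was higher and 8 lower at an unadjusted p under 0.05, and DESeq2 called 5 lower. The smallest p among them was that of Ces1d, a carboxylesterase of lipid droplets (306.8 ± 113.4 CPM in DSS and 37.1 ± 39.4 in diet-alcohol livers, log2 fold change -3.04 ± 0.68, adjusted p = 0.0577 by edgeR). Of 30 fasting genes under CREB, FOXO1 and glucocorticoid control, edgeR called 1 lower and 0 higher, with 8 lower and 1 higher at an unadjusted p under 0.05. DESeq2 called 5 of these lower and 1 higher. The gene edgeR called was Ppp1r3b, a glycogen-targeting subunit of protein phosphatase, which fell from 51.5 ± 21.7 to 12.8 ± 6.60 CPM (log2 fold change -2.01 ± 0.43, adjusted p = 0.0489), a call lost in 10 of 18 alternative settings, among them the fits without DSS 48, 49 or 50 and without DSSHA 45, 65 or 71 (adjusted p = 0.0905 to 0.163). Among 19 tested paralogs of the 10 genes 0 were called by edgeR or DESeq2, with 1 higher and 2 lower at an unadjusted p under 0.05.

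**Figure D4:**
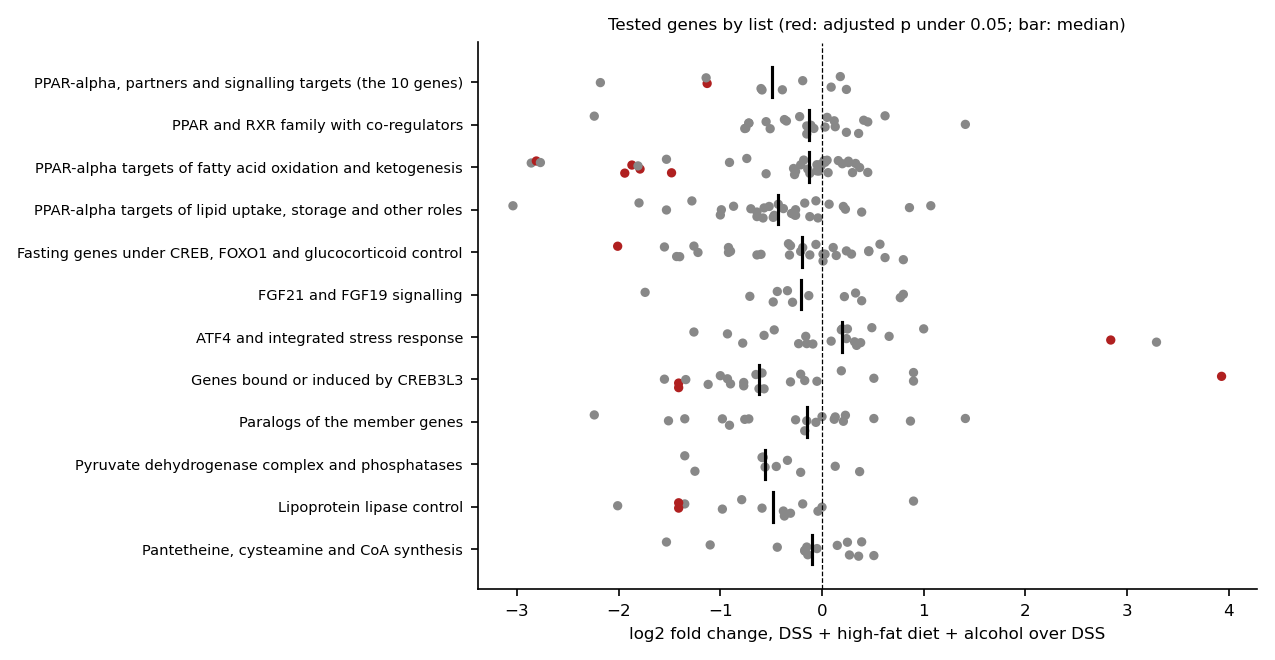
Log2 fold change of diet-alcohol over DSS for every tested gene of the 10 genes' own set and of the pathway lists, with the median of each list marked. The medians run from -0.62 for genes bound or induced by CREB3L3 to 0.19 for ATF4 and the integrated stress response.

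A single library stood out across the set. DSS 15 was the highest of the 8 libraries for 6 of the 10 genes (Ppara, Creb3l3, Fgf21, Pdk4, Vnn1 and Fabp1) and for 21 of the 36 oxidation genes, or 58.3%. Over all genes tested it was the highest for 8.68%. For Angptl4 it was instead the lowest of its group. At the other end, DSSHA 65 was the lowest library for 3 of the 10 genes, but the matching share over all genes tested was not counted. DSS 15 also had the largest summed level of erythroid markers, 2242.7 CPM, against 174.1 to 275.6 CPM in the other DSS libraries and 396.3 to 807.6 CPM in the diet-alcohol libraries. The part of blood in these levels was not tested. Without DSS 15 the median log2 fold change of the 10 genes was -0.20.

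**Figure D5:**
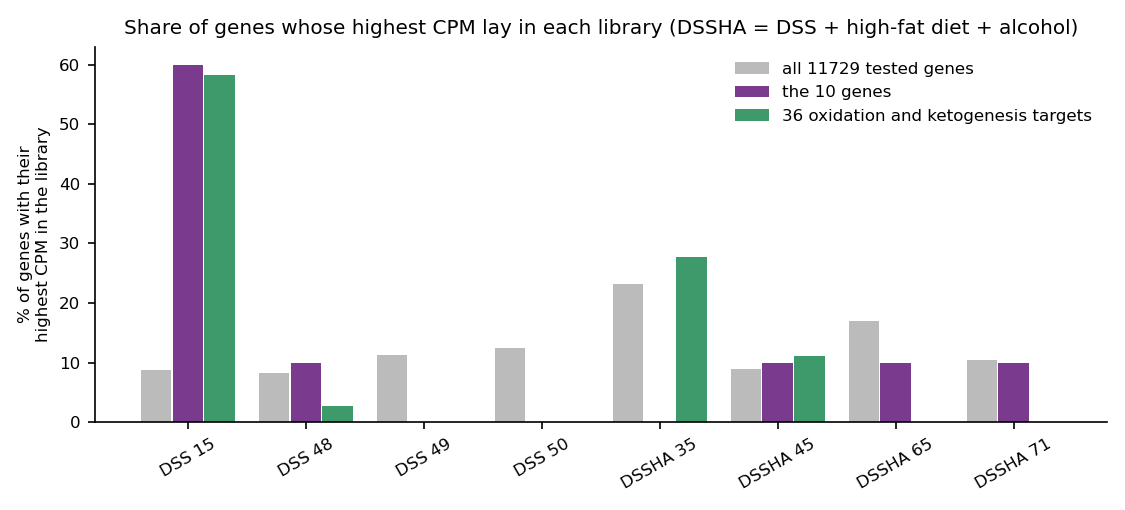
Share of genes (%) for which each of the 8 libraries had the highest CPM, for the 10 genes, the oxidation genes and all genes tested. DSS 15 leads for 60% of the 10 genes and for 58.3% of the oxidation genes, against 8.68% of all genes.

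The depth per library was 12502300 to 16967839 counts, of which 2722757 to 10947612 fell on nuclear genes. The share of mitochondrially encoded counts was 55.8% to 79.1% in DSS and 30.2% to 73.0% in diet-alcohol livers (exact two-sided permutation p = 0.143). With this share as a covariate the median log2 fold change of the 10 genes was -1.02. DSSHA 35 had 784 genes with 1 to 9 counts, and the remaining libraries had 4319 to 4987. DSSHA 35 was the highest library for 23.2% of all genes and for 0 of the 10.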

How the data were processed

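Raw counts per gene and library for 8 liver libraries were taken from the table the authors deposited. The deposited FPKM values, by the authors, were used only for levels between genes and for 2 alternatives. The deposited log2 fold change, p-value and adjusted p-value come from a comparison the authors made with an unstated tool. The deposited group means are a normalized signal by the authors and were not used. The submitters' processing notes name GRCm38 and mm10, and the build of the coordinates is taken from there. The sources used here name no aligner, counter or strand setting, so antisense, overlapping and near-identical genes are uncertain.

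Counts were filtered with filterByExpr (minimum 10), TMM-normalized and passed to the robust quasi-likelihood test of edgeR 4.0.16, with no covariate, in R 4.3.3 at an adjusted p of 0.05 over all genes. Single sums and shares were compared by exact permutation over 70 assignments. The genes and lists were chosen with earlier results of these data known. Named were all 10 genes, called list genes (up to 4 per list by p, otherwise the smallest p), detected paralogs (some genes that this rule names are not reported here), and the 3 genes most alike in scaled log2 CPM (prior count 2) to Fgf21, Angptl4 and Pdk4.

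Other settings tried were DESeq2 1.42.0, limma-voom (limma 3.58.1), upper-quartile or RLE scaling, no filter, log2(FPKM + 1) and log2(FPKM + 0.1) with limma, mitochondrial genes left out, mitochondrial share as covariate, a non-robust fit, and leaving out each library.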

Additional observations from a re-analysis of the deposited data

Results flagged for a closer look

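A sample far from the others of its group was looked for in the 20 groups of 4 values (10 genes, 2 groups), and chance gives such a sample in about 1 of 20 groups. There were 3. Rxra in library DSSHA 45 was at 225.9 CPM, while the other diet-alcohol libraries lay between 160.7 and 166.7. Fgf21 in library DSS 15 was at 13.09 CPM, with the other DSS libraries at 2.23 to 4.07. Ucp2 in library DSSHA 65 was at 96.42 CPM, with the others of that group at 54.35 to 58.07. The gap divided by the range was 0.909 for Rxra, 0.831 for Fgf21 and 0.912 for Ucp2, each above Dixon's critical value for 4 samples.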

How the results depend on the processing

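Over all genes 148 were called by edgeR. The count was 441 with DESeq2, 320 with no filter, 55 with the mitochondrial share as a covariate and 58 to 308 when 1 library was left out. The lowest counts were 58 without DSS 48, 74 without DSS 49, 77 without DSS 50 and 83 without DSSHA 45, and the highest was 308 without DSSHA 35. Of the 10 genes 1 was called. The count was 2 with DESeq2 (Angptl4 and Pdk4), 0 with the covariate and 0 to 1 when 1 library was left out. The cause of these shifts was not tested.

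The sign turned only for genes that did not pass. With the covariate the log2 fold change was -0.04 for Rxra and -0.43 for Ppargc1a. Leaving out 1 library gave -0.05 to 0.18 for Rxra, -0.05 to 0.41 for Ppargc1a, -0.33 to 0.01 for Creb3l3, -0.75 to 0.42 for Fgf21 and -0.01 to 0.37 for Ucp2. Ppara, Angptl4, Pdk4, Vnn1 and Fabp1 kept a negative sign in all 18 alternatives. No paired analysis was possible because DSS and diet-alcohol libraries have no number in common. The smallest count behind a value of the 10 genes was 15, for Fgf21 in DSS 50.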
